A study of Mus musculus with 7 samples.

Results

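The genes described here are 33 markers of the layers of the cerebral cortex, measured by RNA-seq in cortex from 7 APP/PS1 mice. They were picked by symbol from known layer genes, 12 for the upper layers and 21 for the deep layers. No measured value entered that rule, although earlier results of these data were known when the list was drawn up. All 33 were found among the 23413 gene symbols of the count files, and all 33 were among the 15881 genes with enough counts to be tested.

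APP/PS1 mice carry mutant human amyloid precursor protein and presenilin 1 transgenes and develop amyloid plaques. Mice of both diet groups carried these transgenes, and no wild-type library was analysed here. At 6 months of age the mice were assigned to a ketogenic diet (KD, 90% of energy from fat, 10% from protein and under 0.5% from carbohydrate) or a control diet (CD, 16% fat, 10% protein and 74% carbohydrate), and they were housed singly from then on. Cortex was taken at 13 months of age, after 7 months of diet, from 4 CD mice (CD 1 to CD 4) and 3 KD mice (KD 1 to KD 3), with 1 library for each mouse.

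Neurons of the cerebral cortex are stacked in layers, and each layer has its own targets. Upper-layer neurons mainly connect cortical areas with each other or receive thalamic input, while deep-layer neurons send their axons to the spinal cord, brain stem and thalamus. Transcription factors set these identities during development, and many of them stay expressed in the adult, together with channels, enzymes and secreted proteins that mark single layers. The question asked of these genes was whether their levels, or the balance of upper-layer to deep-layer RNA, differed between the diets.

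Library totals ranged from 22272883 to 36614954 counts, so that 3 counts in a library corresponded to between 0.0819 and 0.135 CPM (counts scaled to a common library size). All levels are CPM after TMM scaling, which corrects for differences in library composition. The cortical labels were checked with genes of excitatory cortical neurons. Slc17a7, the vesicular glutamate transporter of these cells, lay between 428.8 and 631.5 CPM in the 7 libraries. Neurod6, a transcription factor of excitatory neurons, was 43.3 CPM in KD 3 and 92.5 to 157.6 CPM in the other libraries. Emx1, a dorsal forebrain transcription factor, ranged from 2.96 CPM in KD 3 and 3.11 CPM in KD 1 to 6.70 CPM. The mean log2 CPM of a list of 6 excitatory neuron genes was 5.87 in KD 3 and 6.30 to 6.71 in the other libraries. The sex of the mice is not given by the labels. Xist, the transcript of the inactive X chromosome, lay between 247.8 and 530.7 CPM in CD 1, CD 2, KD 1 and KD 2 and between 0.310 and 3.08 CPM in CD 3, CD 4 and KD 3. Ddx3y, a gene of the Y chromosome, had 9853, 12660 and 7450 counts in CD 3, CD 4 and KD 3 and 1 to 9 counts in the other libraries. By these transcripts CD 3, CD 4 and KD 3 came from male mice and the others from female mice, and KD 3 was the only male of KD.

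No layer gene differed between the diets by edgeR's quasi-likelihood test once p-values were adjusted over all tested genes (Benjamini-Hochberg). KD levels exceeded CD levels for 5 of the 12 upper-layer genes, whose median log2 fold change was -0.11, and for 9 of the 21 deep-layer genes, whose median was -0.07. Over all tested genes 49% were higher in KD, and the median was -0.0033. Before adjustment 3 of 33 layer genes (9.09%) had p under 0.05, where 506 of all 15881 tested genes (3.19%) did. These were Scnn1a and Parm1, lower in KD (1.52% of all tested genes were lower at this threshold), and Rprm, higher in KD (1.66%). No layer gene reached an unadjusted p of 0.01, which 51 genes (0.321%) did, and no gene of the whole table passed after adjustment (0%), the smallest adjusted p being 0.979. DESeq2 also called no gene after adjustment, with 585 genes at an unadjusted p under 0.05. The KD and CD values did not overlap for 2 of 33 layer genes (6.06%), Scnn1a and Parm1, against 4.11% of all tested genes. Both were lower in KD, as were 2.07% of all tested genes without overlap, and none was higher, as were 2.05%. In bulk tissue, fewer cells of a layer and less RNA for each cell cannot be told apart, and this holds for every level given here.

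**Figure D1:**
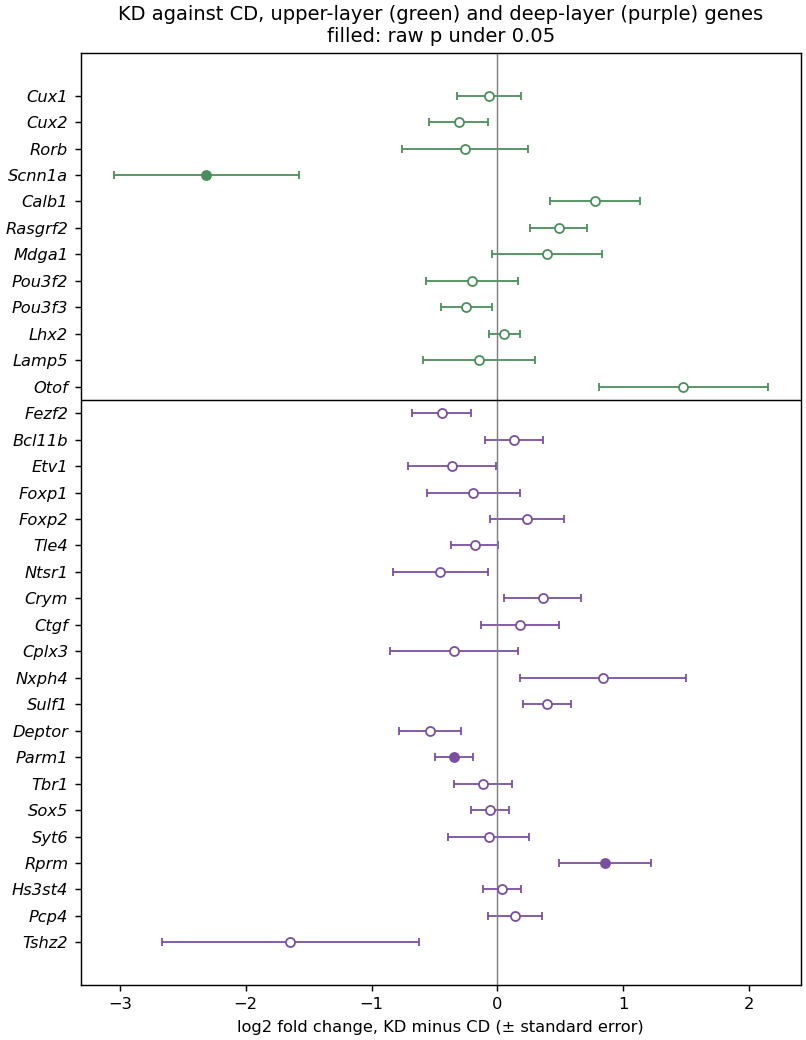
Log2 fold change of KD minus CD (horizontal axis, with its standard error) for the 12 upper-layer and 21 deep-layer genes, filled where the unadjusted p was under 0.05. Most points lie within 0.5 of 0, and Scnn1a at -2.31, Tshz2 at -1.65 and Otof at 1.48 lie farthest from it.

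The balance of upper to deep layers differed between the diets by less than the spread between mice. The mean log2 CPM of the upper-layer genes was 5.36 ± 0.15 in CD (SD, n = 4) and 5.31 ± 0.22 in KD (SD, n = 3), and that of the deep-layer genes was 4.86 ± 0.21 and 4.81 ± 0.13. The upper-minus-deep difference was 0.38, 0.59, 0.90 and 0.13 in CD 1 to CD 4 and 0.13, 0.82 and 0.57 in KD 1 to KD 3. Its mean was 0.50 ± 0.33 in CD and 0.51 ± 0.35 in KD, a difference of 0.00399 against a spread within the groups of 0.34. With each library left out in turn the difference ranged from -0.151 (without KD 2) to 0.192 (without KD 1). The lowest balance of each diet was equal to 2 decimals, and the ranges of both diets lay almost wholly over each other.

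Scnn1a, which encodes the alpha subunit of the epithelial sodium channel and marks layer 4 neurons, had the largest difference of the 33 genes. It is a protein-coding gene on chromosome 6 (mm10, 125320659 to 125344943, plus strand). Its level was 1.77, 2.29, 0.977 and 7.50 CPM in CD 1 to CD 4 and 0.345, 0.659 and 0.885 CPM in KD 1 to KD 3, from 62, 67, 32 and 285 counts and from 8, 22 and 20 counts. All 3 KD libraries lay below all 4 CD libraries, with CD 3 just above KD 3 and CD 4 far above the other CD libraries. The mean was 3.14 ± 2.96 CPM in CD (SD, n = 4) and 0.630 ± 0.271 CPM in KD (SD, n = 3). The log2 fold change was -2.31 (SE 0.74), with an unadjusted p of 0.0131 and an adjusted p of 0.979 by edgeR's quasi-likelihood test. Without CD 4 it was -1.41 with an unadjusted p of 0.0159, and without CD 4 and KD 3 together it was -1.70 with an unadjusted p of 0.00948. Over the 14 alternatives the unadjusted p ranged from 0.000762 to 0.0481, and Scnn1a was lower in KD in each of them. With groups that did not overlap, CD necessarily lay above KD among the libraries with high Xist and among those with low Xist. That split thus adds no support of its own. At these low counts the level rests on few reads.

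Rorb, a nuclear receptor that specifies layer 4 identity, had groups that overlapped. It lies on chromosome 19 (18930605 to 19111196, minus strand). Its level was 193.6, 196.1, 190.7 and 53.1 CPM in CD 1 to CD 4 and 110.5, 219.3 and 67.5 CPM in KD 1 to KD 3. CD 1, CD 2 and CD 3 were nearly equal, CD 4 and KD 3 were far below them, and the KD libraries spanned nearly the whole range. The log2 fold change was -0.26 (SE 0.50), with an adjusted p of 0.983, and it was 0.06 without KD 3.

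The Cut-like homeobox factors Cux1 and Cux2 mark layers 2 to 4 and control dendrite growth of these neurons. Cux2 was measured at 51.5, 49.6, 58.98 and 41.3 CPM in CD and at 40.3, 55.7 and 25.9 CPM in KD, with a log2 fold change of -0.31 (SE 0.24) and overlapping groups. Cux1 was nearly constant in CD, between 70.6 and 78.4 CPM, while the KD libraries gave 54.0, 110.3 and 48.9 CPM. KD 2 was thus the highest of all libraries for Cux1 and KD 1 and KD 3 the lowest, and the log2 fold change was -0.07 (SE 0.26). Without KD 2 it was -0.54, with an unadjusted p of 0.000789, and without KD 3 it was 0.14.

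The other upper-layer transcription factors had small differences. Pou3f2 (Brn2), a POU factor of upper-layer neurons and their progenitors, was measured at 89.5, 83.7, 80.2 and 36.1 CPM in CD and at 77.2, 78.1 and 33.1 CPM in KD, so that CD 4 and KD 3 stood below the other 5 libraries. Its log2 fold change was -0.20 (SE 0.37). Pou3f3 (Brn1), its close relative, ranged from 45.0 to 57.8 CPM in CD and from 31.7 to 60.6 CPM in KD, with a log2 fold change of -0.25 (SE 0.20). Lhx2, a LIM homeobox factor of the developing cortex, had the lowest ratio of highest to lowest library of the 33 genes, with values between 17.4 and 23.1 CPM in all 7 libraries, with a log2 fold change of 0.06 (SE 0.12).

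Lamp5 and Otof, which mark layers 2 and 3, showed which libraries carried the spread. Lamp5, a lysosome-associated membrane protein that is also found in a class of interneurons, was measured at 191.2, 193.6, 157.1 and 63.2 CPM in CD and at 154.0, 192.9 and 63.2 CPM in KD. CD 4 and KD 3 had the same low value, and the other libraries of both diets were alike, with a log2 fold change of -0.15 (SE 0.44). Otof, which encodes otoferlin, a calcium sensor of membrane fusion, was measured at 5.17, 10.3, 20.2 and 10.4 CPM in CD and at 10.0, 15.8 and 70.8 CPM in KD. KD 1 and KD 2 lay inside the CD range and KD 3 far above it. The log2 fold change of Otof was 1.48 (SE 0.67), with an unadjusted p of 0.0571, and it was 0.16 without KD 3. With Xist as a covariate it was 1.18 with an unadjusted p of 0.00611, and over the 14 alternatives the unadjusted p ranged from 0.00359 to 0.842. The highest came without CD 4 and KD 3 together, a choice made after the values were seen.

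The remaining upper-layer genes had positive log2 fold changes that did not pass the test, and their groups overlapped. Calb1, which encodes the calcium buffer calbindin of layer 2 and 3 neurons and of some interneurons, was measured at 122.6, 165.4, 176.3 and 72.1 CPM in CD and at 146.6, 192.7 and 350.2 CPM in KD. KD 3 was highest and CD 4 lowest, and the log2 fold change was 0.78 (SE 0.36, unadjusted p of 0.0593), or 0.34 without KD 3. Rasgrf2, a Ras guanine nucleotide exchange factor, ranged from 124.2 to 250.1 CPM in CD and from 205.1 to 297.9 CPM in KD, with a log2 fold change of 0.49 (SE 0.22). Mdga1, a cell surface protein of the immunoglobulin superfamily, ranged from 5.29 to 13.7 CPM and from 5.53 to 18.6 CPM, with a log2 fold change of 0.39 (SE 0.44) that was -0.21 without KD 3.

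**Figure D2:**
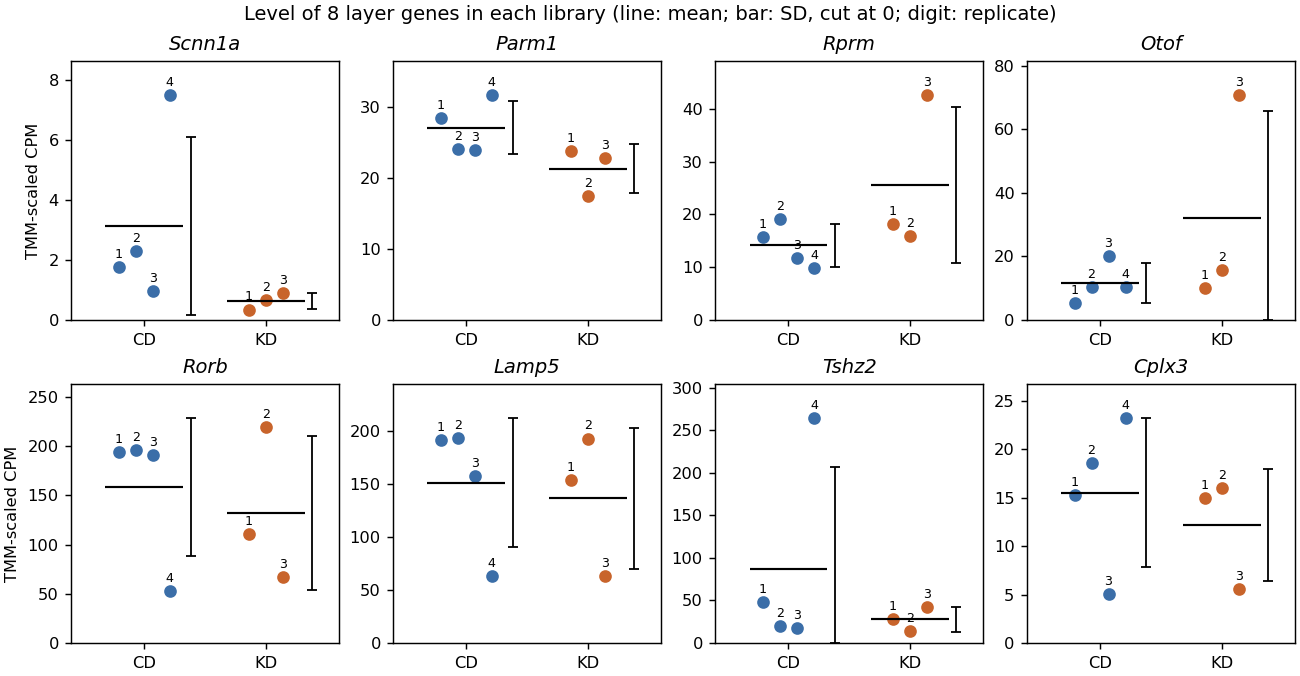
TMM-scaled CPM of 8 layer genes in each library (vertical axes from 0, points numbered by replicate, lines for the mean and bars for the SD, cut at 0). The 3 KD libraries lie below every CD library for Scnn1a and Parm1, while CD 4, KD 3 or both stand apart for Otof, Rorb, Lamp5, Tshz2 and Rprm, and CD 3 and KD 3 for Cplx3.

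In the deep layers, the factors that specify subcortical projection neurons did not pass the test. Fezf2, the zinc finger factor that selects corticospinal fate in layer 5, was measured at 13.9, 16.3, 16.0 and 17.9 CPM in CD and at 16.8, 10.8 and 7.83 CPM in KD. KD 2 and KD 3 lay below all CD libraries and KD 1 inside their range, and the log2 fold change was -0.44 (SE 0.24, unadjusted p of 0.0962). Without KD 1 the unadjusted p was 0.00317. Bcl11b (Ctip2), which acts downstream of Fezf2, was measured at 68.2, 69.6, 68.3 and 88.3 CPM in CD and at 80.1, 51.1 and 110.5 CPM in KD, so that the KD libraries lay on both sides of the CD values, with a log2 fold change of 0.13 (SE 0.23). Etv1, an ETS factor of layer 5, ranged from 56.1 to 147.7 CPM in CD, where CD 4 was highest, and from 43.7 to 83.6 CPM in KD, with a log2 fold change of -0.36 (SE 0.35) that was 0.02 without CD 4.

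Parm1, a mucin-like transmembrane protein, was the other gene without overlap. It lies on chromosome 5 (91517615 to 91626894, plus strand). Its level was 28.4, 24.1, 23.95 and 31.7 CPM in CD 1 to CD 4 and 23.78, 17.4 and 22.8 CPM in KD 1 to KD 3. The 3 KD libraries were the 3 lowest, but KD 1 and CD 3 were nearly equal. The mean was 27.04 ± 3.74 CPM in CD (SD, n = 4) and 21.3 ± 3.44 CPM in KD (SD, n = 3). The log2 fold change was -0.35 (SE 0.15), with an unadjusted p of 0.0487 and an adjusted p of 0.979 by edgeR. Without CD 4 it was -0.26 with an unadjusted p of 0.118, and without KD 2 it was -0.22 with an unadjusted p of 0.179. Over the 14 alternatives the unadjusted p ranged from 0.0376 to 0.179, and it was above 0.05 with RLE scaling (0.0512), library size alone (0.0588) and Xist as a covariate (0.055). As for Scnn1a, the lack of overlap means that CD lay above KD at high and at low Xist alike.

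Rprm, which encodes reprimo, a cell cycle inhibitor used as a marker of layer 6, had the third unadjusted p under 0.05. It is a gene of 1 exon on chromosome 2 (54084093 to 54085552, minus strand). Its level was 15.8, 19.2, 11.7 and 9.89 CPM in CD and 18.1, 15.9 and 42.7 CPM in KD. KD 1 and KD 2 lay inside the CD range and KD 3 above it. The mean was 14.1 ± 4.16 CPM in CD (SD, n = 4) and 25.6 ± 14.9 CPM in KD (SD, n = 3), and the log2 fold change was 0.86 (SE 0.36, unadjusted p of 0.0451, adjusted p of 0.979). Without KD 3 it was 0.27 with an unadjusted p of 0.326. The unadjusted p was also above 0.05 without CD 1 (0.065), CD 3 (0.1) or CD 4 (0.112), with no filter on low counts (0.0688) and with Xist as a covariate (0.0639).

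Tshz2, a teashirt zinc finger factor of deep-layer neurons, had the largest difference of the deep-layer genes, set by a single library. It lies on chromosome 2 (169633013 to 170071816, plus strand). Its level was 48.0, 20.04, 17.2 and 264.7 CPM in CD and 27.9, 13.5 and 42.7 CPM in KD. CD 4 was far above all others, and the other 6 libraries of both diets lay between 13.5 and 48.0 CPM. The log2 fold change was -1.65 (SE 1.02, unadjusted p of 0.148), and -0.02 without CD 4. Of its exon bases, 65.2% also lie in exons of Gm26883 on the other strand, and the strand setting of the counting is not given in the sources used here, so that reads of both genes may be joined in this value.

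The layer 6 factors that direct axons to the thalamus had overlapping groups. Tbr1, a T-box factor of layer 6, was measured at 81.9, 70.4, 76.9 and 53.2 CPM in CD and at 69.1, 84.1 and 42.3 CPM in KD, with a log2 fold change of -0.11 (SE 0.23). Foxp2, a forkhead factor of layer 6, was measured at 25.6, 31.1, 19.6 and 12.8 CPM in CD and at 26.5, 33.1 and 18.9 CPM in KD, with a log2 fold change of 0.24 (SE 0.30). For both genes the lowest value of each diet was that of CD 4 or KD 3, and for Foxp2 CD 3 was about as low as KD 3. Foxp1, a relative of Foxp2 found in several layers, was 77.3 CPM in CD 4 and 60.0 CPM in KD 3 against 137.9 to 173.7 CPM elsewhere, with a log2 fold change of -0.19 (SE 0.37).

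Tle4, a corepressor of corticothalamic neurons, ranged from 72.3 to 111.4 CPM in CD and from 59.1 to 93.4 CPM in KD, and Sox5, an SRY-box factor that times deep-layer neuron production, from 44.0 to 57.4 CPM and from 38.5 to 58.7 CPM. Their log2 fold changes were -0.18 (SE 0.19) and -0.06 (SE 0.15). Ntsr1, the neurotensin receptor used to mark corticothalamic neurons, was 8.76 CPM in CD 4 and 5.35 CPM in KD 3 against 2.84 to 4.69 CPM elsewhere, the reverse of the order seen for Tbr1 and Foxp1, and its log2 fold change was -0.45 (SE 0.38).

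Other deep-layer markers encode synaptic proteins, enzymes and regulators. Pcp4, a small calmodulin-binding protein, was measured at 196.7, 201.0, 137.2 and 119.1 CPM in CD and at 203.5, 198.7 and 137.3 CPM in KD, with a log2 fold change of 0.14 (SE 0.22). Its lower values came from CD 3, CD 4 and KD 3, and 23.7% of its exon bases are shared with Igsf5 on the same strand. Syt6, a synaptotagmin, ranged from 13.03 to 26.9 CPM in CD and from 12.6 to 29.9 CPM in KD, with its lowest value of each diet in CD 4 and KD 3 and a log2 fold change of -0.07 (SE 0.32). Hs3st4, a heparan sulfate sulfotransferase, was between 55.9 and 86.8 CPM in all 7 libraries, with a log2 fold change of 0.03 (SE 0.15). Deptor, an inhibitor of mTOR, was 7.79 CPM in KD 3 against 13.5 to 21.5 CPM elsewhere, with a log2 fold change of -0.53 (SE 0.25, unadjusted p of 0.0606). Sulf1, an extracellular sulfatase, ranged from 16.5 to 25.7 CPM in CD and from 20.8 to 31.6 CPM in KD, with a log2 fold change of 0.39 (SE 0.19). Crym, a thyroid hormone-binding protein, ranged from 34.3 to 73.2 CPM and from 41.7 to 93.3 CPM, with a log2 fold change of 0.36 (SE 0.31).

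The genes of layer 6b, the remnant of the subplate, had their lowest value in CD 3. Ctgf, a secreted matricellular protein listed as Ccn2 in newer annotation, was measured at 27.4, 29.8, 14.6 and 43.0 CPM in CD and at 33.5, 37.7 and 26.3 CPM in KD, with a log2 fold change of 0.18 (SE 0.31). Cplx3, a complexin of the vesicle release machinery, was measured at 15.3, 18.6, 5.04 and 23.2 CPM in CD and at 15.0, 16.0 and 5.57 CPM in KD, with a log2 fold change of -0.34 (SE 0.51). CD 3 and KD 3 were the low libraries of both genes within their diets. Nxph4, a neurexin ligand, was measured at 0.600, 0.410, 0.122 and 0.526 CPM in CD, from 21, 12, 4 and 20 counts, and at 0.389, 0.389 and 1.504 CPM in KD, from 9, 13 and 34 counts. KD 3 was highest for Nxph4 and CD 3 lowest, and its log2 fold change of 0.84 (SE 0.66) was -0.10 without KD 3.

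The layer genes varied widely among libraries of the same diet, and CD 4 and KD 3 held most of the extreme values. The ratio of the highest to the lowest library had a median of 2.70 over the 33 genes, against 1.52 over all tested genes and 1.45 over those with a mean of at least 1 CPM. It was above 2 for 24 of 33 layer genes (72.7%), and for 29.9% and 22.3% of the other sets. CD 4 was the highest or lowest library for 16 of 33 layer genes (48.5%, against 38.1% of all tested genes), and KD 3 for 19 (57.6%, against 40.3%). Without both libraries, which were chosen after the values were seen, the median ratio was 1.63 for the layer genes and 1.34 for all genes. The groups then did not overlap for 5 of 33 layer genes, where 15.6% of all tested genes did not, and 1 of 33 had an unadjusted p under 0.05, where 2.54% of all tested genes did.

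**Figure D3:**
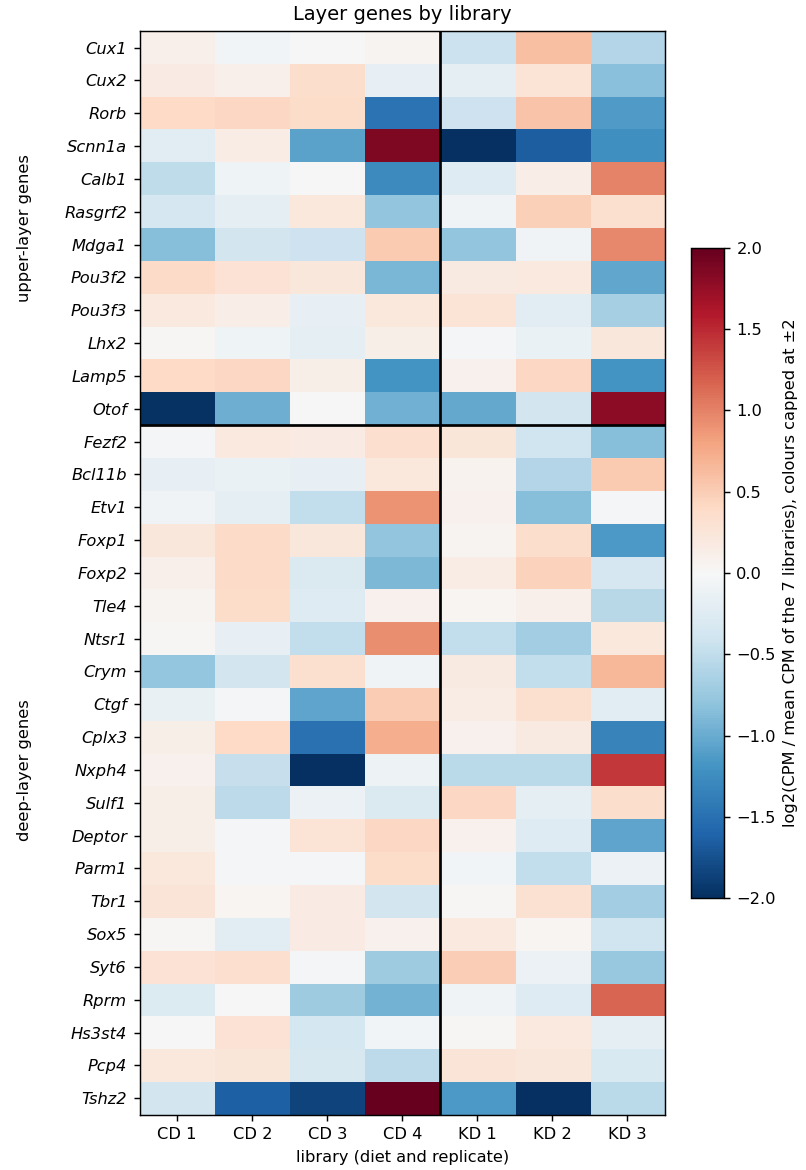
Level of the 33 layer genes (rows) in the 7 libraries (columns) as log2 of CPM over the mean CPM of the 7 libraries, with colours capped at 2 in each direction. CD 4 and KD 3 share low values of Rorb, Pou3f2, Lamp5, Foxp1 and Syt6, and CD 3 is low for the layer 6b genes Ctgf, Cplx3 and Nxph4.

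CD 4 and KD 3 departed from the other libraries of their diet partly in the same genes. A departure was counted where a library lay more than 0.5 on the log2 scale from the mean CPM of its diet's other libraries, a limit chosen after the values were seen. KD 3, with low Xist, was thus set against KD libraries that all had high Xist. The part of sex in these departures was not tested. CD 4 departed in 18 of 33 layer genes (54.5%, against 22% of all tested genes) and KD 3 in 26 (78.8%, against 24.3%). Both lay below in 8 layer genes, namely Rorb, Pou3f2, Lamp5, Foxp1, Foxp2, Tbr1, Syt6 and Pcp4 (24.2%, against 3.53% of all tested genes). Both lay above in 4, namely Scnn1a, Mdga1, Ntsr1 and Tshz2 (12.1%, against 4.4%), and they departed in opposite directions in 3, namely Calb1, Cplx3 and Rprm (9.09%, against 3.54%). The departures of CD 4 and KD 3 were -1.87 and -1.29 for Rorb, -1.23 and -1.23 for Pou3f2, -1.52 and -1.46 for Lamp5, -1.06 and -1.36 for Foxp1 and 3.22 and 1.05 for Tshz2. Layer genes departed more often than all tested genes in each library alone, which by itself raises the shares departing in both. How much of the sharing this gives was not tested. The genes low in both came from upper and deep layers alike.

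Some markers of other regions and cell types moved with these libraries. The summed level of 6 olfactory bulb genes, of which 5 were tested, was 74.2 CPM in CD 4 and 6.80 to 11.1 CPM in the other CD libraries, and 19.6 CPM in KD 3 against 5.70 CPM in KD 1 and 6.44 CPM in KD 2. In KD 3 a single gene, Cdhr1, gave 12.7 of the 19.6 CPM. Eomes and Sp8 were also higher there than in the other KD libraries, while Doc2g was about equal to KD 2, and Th and Tbx21 were below KD 1. The sum of 10 ventral forebrain genes, of which 7 were tested, was 889.4 CPM in KD 3, 139.8 and 146.4 CPM in the other KD libraries and 126.7 to 182.5 CPM in CD. The sum of the thalamus list was 232.8 CPM in CD 4 and 189.6 CPM in KD 3 against 75.4 to 112.2 CPM elsewhere. A single gene, Slc17a6, gave 160.5 CPM of it in CD 4 and 101.9 CPM in KD 3. Amotl1 and Prkcd were also higher in CD 4 and KD 3 than in the other libraries. In KD 3 Tcf7l2 was about equal to KD 2, and Lef1 was the lowest of all libraries. The sum of 10 oligodendrocyte genes was 1229 CPM in CD 3, 1241 CPM in KD 3 and 2386 CPM in KD 2, against 4011 to 4666 CPM in the other 4 libraries. All 10 were lower in KD, with a median log2 fold change of -0.42, and none had an unadjusted p under 0.05. No gene of these lists was at 0 in all libraries. The hippocampus list stayed between 17.7 and 31.5 CPM and the striatum list between 223.4 and 444.0 CPM with KD 3 highest. The 9 interneuron genes summed to 1099 to 1367 CPM in CD and 943.9 to 1199 CPM in KD. Their mean log2 CPM was 6.13 to 6.197 in CD and 5.94 to 6.06 in KD, without overlap. That mean includes Pvalb, which was 18.4 CPM in KD 3 against 65.0 to 110.5 CPM elsewhere. By contrast, Gad2, Sst and Reln were highest in KD 3. Of these genes 3 were higher and 6 lower in KD, and 1 had groups without overlap (11.1%, against 4.11% of all tested genes). This was Gad1, a GABA-synthesizing enzyme, at 471.7 to 656.2 CPM in CD and 403.1 to 447.8 CPM in KD (log2 fold change -0.37, unadjusted p of 0.0138, adjusted p of 0.979). Other marker genes with an unadjusted p under 0.05 by edgeR all had an adjusted p of 0.979. Th (0.0299) and Emx1 (0.0480) were lower in KD and Drd1 (0.0318) higher, and Th and Drd1 had groups without overlap. They were 1 of 5 olfactory bulb (20%), 1 of 6 excitatory (16.7%) and 1 of 10 striatum genes (10%). Ecel1 (0.0231), Gabrq (0.0270) and Baiap3 (0.0316) were 3 of 7 ventral forebrain genes (42.9%, against 3.19% of all tested genes) and high in KD 3 alone. The part of these lists in the levels of the layer genes was not tested.

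**Figure D4:**
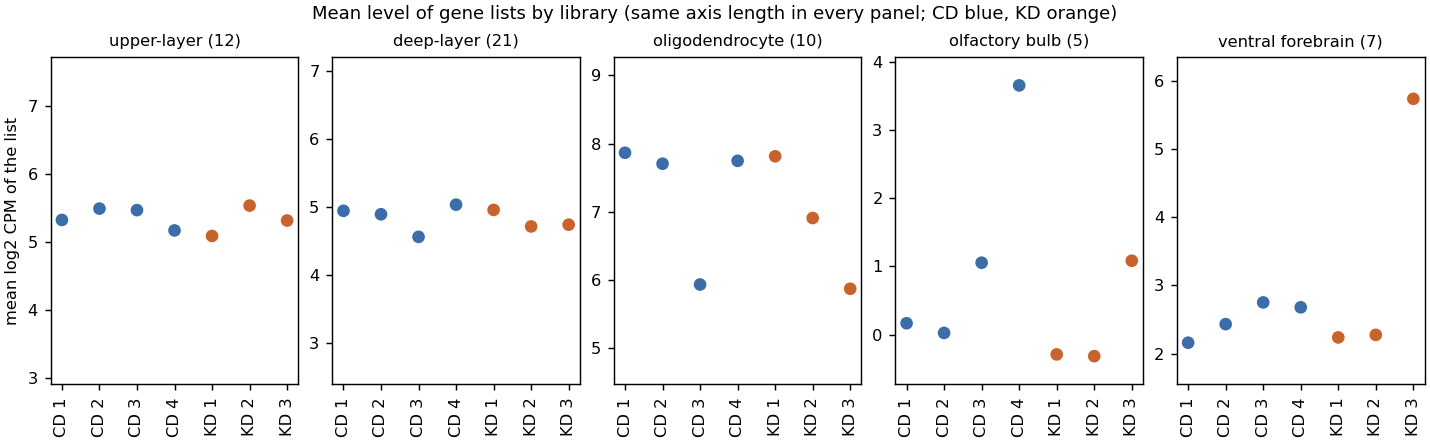
Mean log2 CPM of the tested genes of 5 lists in each library (vertical axes of equal length, CD in blue and KD in orange). The upper-layer and deep-layer means stay within 0.5 across libraries, while the oligodendrocyte mean is low in CD 3 and KD 3, the olfactory bulb mean high in CD 4 and the ventral forebrain mean high in KD 3.

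Other layer genes from a list of 33 that are not among those above gave a like picture. All 33 were in the files and 32 were tested, and 15 of them had the higher mean in KD at a median log2 fold change of -0.04. The 11 upper-layer genes had a median of -0.02 with none at an unadjusted p under 0.05. The 21 tested deep-layer genes had a median of -0.09 with 2 such genes (9.52%, against 3.19% of all tested genes). Hsd11b1, which encodes an enzyme that regenerates active glucocorticoid, was measured at 26.6, 20.4, 19.0 and 27.2 CPM in CD and at 20.2, 16.5 and 11.1 CPM in KD. Its groups overlapped, since KD 1 lay above CD 3, and the log2 fold change was -0.55 (SE 0.22, unadjusted p of 0.0345). Nxph2, a relative of Nxph4, was measured at 3.72, 3.66, 2.72 and 1.74 CPM in CD and at 4.45, 3.86 and 8.49 CPM in KD, and all KD libraries lay above all CD libraries. Its log2 fold change was 0.92 (SE 0.36, unadjusted p of 0.0316), and both genes had an adjusted p of 0.979. The upper-layer genes Rspo1 and Kcnh5, named after their values were seen, were lowest in CD 4 and KD 3 as Rorb was, at 0.526 and 3.05 CPM for Rspo1, a Wnt signaling enhancer, and at 29.7 and 39.0 CPM for Kcnh5, a potassium channel. The other libraries lay between 6.26 and 13.9 CPM for Rspo1 and between 71.7 and 133.8 CPM for Kcnh5. Wfs1, a protein of the endoplasmic reticulum, was instead highest there, at 145.8 CPM in CD 4 and 114.9 CPM in KD 3 against 30.8 to 44.5 CPM.

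Levels per exon length ranked the genes within each set. Among upper-layer genes Lamp5 was highest, at 51.6 ± 20.8 CPM per kb of exon in CD (SD, n = 4) and 46.6 ± 22.7 CPM per kb in KD (SD, n = 3), followed by Calb1 at 27.7, Rasgrf2 at 19.9 and Rorb at 14.3 CPM per kb in CD. Ranges across libraries overlapped between neighbours in this order, and Scnn1a was lowest at 0.759 CPM per kb. Among deep-layer genes Pcp4 was highest, at 159.4 ± 40.5 CPM per kb in CD and 175.3 ± 35.96 CPM per kb in KD, above Hs3st4 at 22.1, Tle4 at 16.0 and Crym at 15.4 CPM per kb in CD. Nxph4 was lowest, at 0.248 CPM per kb in CD. All 33 genes are protein-coding and lie on 16 chromosomes, and the exons of 9 overlap exons of another gene, on the other strand for 7 and on the same strand for 2.

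The promoters of genes that CD 4 and KD 3 shared were compared as sequence. RefSeq (GRCm38.p6, the mm10 build) gave the 250 bases before its listed start for 24 of the 33 genes. That start need not be the one GENCODE gives, as for Lamp5, whose window runs past the GENCODE start and is not printed. Their median GC content was 62.6%, against 52.4% over 32851 such windows, and their median number of CG dinucleotides was 13.5, against 6. Of the 24 windows 16 held at least 10 CG dinucleotides, as did 37.8% of all windows. The letters TATAAA, searched on both strands, were found in 0 of 24 windows and in 12.4% of all windows. These sets are unlike, since all windows include several starts for some genes and were not filtered by gene type or level. The windows are shown for Rorb (chr19:19111197-19111446, minus strand) and Pou3f2 (chr4:22488367-22488616, minus strand), which were low in both libraries, and for Tshz2 (chr2:169632259-169632508, plus strand), which was high in both. Each is written 5′ to 3′ on the strand of its gene, with CG dinucleotides in capitals, and the most upstream start was taken where RefSeq lists several.
Rorb: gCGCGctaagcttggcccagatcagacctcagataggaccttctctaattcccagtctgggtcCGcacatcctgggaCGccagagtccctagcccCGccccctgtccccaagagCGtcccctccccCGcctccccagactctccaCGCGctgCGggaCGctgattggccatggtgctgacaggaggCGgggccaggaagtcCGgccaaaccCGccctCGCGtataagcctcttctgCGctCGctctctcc
Pou3f2: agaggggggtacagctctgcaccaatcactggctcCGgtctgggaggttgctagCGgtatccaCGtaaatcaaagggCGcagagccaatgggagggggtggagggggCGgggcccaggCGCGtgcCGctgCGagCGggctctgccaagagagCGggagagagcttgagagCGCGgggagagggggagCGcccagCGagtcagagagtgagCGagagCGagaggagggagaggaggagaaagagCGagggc
Tshz2: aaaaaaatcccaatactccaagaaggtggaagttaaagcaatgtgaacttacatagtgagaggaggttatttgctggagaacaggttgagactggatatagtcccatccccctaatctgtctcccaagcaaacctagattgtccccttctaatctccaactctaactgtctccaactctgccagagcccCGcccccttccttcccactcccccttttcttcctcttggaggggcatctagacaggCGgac
Rorb and Pou3f2 hold 18 CG dinucleotides each at a GC content of 66% and 66.8%, while Tshz2 holds 2 at 48.8%. Lamp5, also low in both libraries, holds 3 at 49.2%. Mdga1 and Ntsr1, high in both libraries as Tshz2 was, hold 21 at 70.4% and 18 at 68.4%. The genes low in both and those high in both thus each included windows rich and poor in CG.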

How the data were processed

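Cortical RNA was sequenced from 4 CD and 3 KD mice, and diet and replicate were taken from the labels, which call the control diet SD. The authors made ribosomal-RNA-depleted stranded libraries from 300 ng of RNA, checked reads with FASTQC, aligned them to mm10 with STAR and counted reads for each gene, and they deposited raw counts for 23413 symbols. Tool versions, annotation and strand setting are not given in the sources used here. Totals were 22272883 to 36614954 counts, and the floors of 3 counts cover counting error only. Standard errors of log2 fold changes came from the quasi-likelihood F of the fit, so that the spread between libraries enters them.

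The counts were tested with edgeR 4.0.16 in R 4.3.3 (filterByExpr, TMM, estimateDisp, glmQLFit with robust=TRUE, glmQLFTest), KD against CD without a covariate and with Benjamini-Hochberg adjustment over 15881 genes. The tested genes held 99.97% of the counts. Pairs of libraries within a diet differed by more than sampling noise, with chi-square values of 15.4 to 64.8 for each gene. P-values set the difference between the diets against the spread between libraries of a diet, with 1 library for each mouse. Log2 CPM used a prior count of 2. Coordinates and exon lengths came from GENCODE M21 on mm10, where all 33 genes were matched, 1 through an older symbol. Alternatives were RLE scaling, library size alone, no filter, DESeq2 1.42.0, Xist as a covariate, a replicate block and each library left out. Leaving out CD 4 and KD 3 together, chosen after seeing the data, is the last of the 14 alternatives. Figures were drawn with matplotlib 3.10.9.

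The layer genes and lists were chosen with earlier results of these data known. All 33 were accounted for. Full values were set for genes with an unadjusted p under 0.05, without overlap, among the 2 upper-layer and 3 deep-layer genes with the largest fold change, highest per kb, and for Cux2, Rorb, Fezf2, Bcl11b, Foxp2, Tbr1 and Ctgf. Values of the others were chosen for print after they were seen, apart from further layer genes with an unadjusted p under 0.05 and the cortex checks. A further gene of the cortex checks is not reported here.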

Additional observations from a re-analysis of the deposited data

Results flagged for a closer look

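In 5 of 46 sets of CD values examined, a single library stood farther from the others than Dixon's 95% critical value of 0.829 for 4 samples allows, where chance gives about 1 in 20, or 2.3 of 46. The measure is the gap to the nearest library divided by the whole range of the group, on the log2 CPM scale. The KD group, with 3 libraries, was not examined in this way. The share of all tested genes past this limit was not taken, and CD 4 was the highest or lowest library for 38.1% of them. The count can therefore not be read as particular to the layer genes.

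For Rorb the ratio was 0.979, with CD 4 at 5.73 and the other CD libraries between 7.58 and 7.62. For Pou3f2 it was 0.879, with CD 4 at 5.18 against 6.33 to 6.48, and for Foxp1 it was 0.857, with CD 4 at 6.27 against 7.27 to 7.44. For Bcl11b it was 0.922, with CD 4 on the high side at 6.46 against 6.09 to 6.12. The mean of the 10 oligodendrocyte genes gave 0.917, with CD 3 at 5.93 against 7.71 to 7.87. The 4 layer genes thus all had CD 4 as the library apart, low for 3 of them and high for Bcl11b.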

How the results depend on the processing

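RLE scaling, library size alone and no filter on low counts reversed no layer gene, nor did DESeq2, Xist as a covariate or the replicate block. The count of all genes at an unadjusted p of at most 0.01 was 51, and it was 120 with DESeq2, 203 with Xist as a covariate and 19 to 211 with each library left out. No gene passed after adjustment except 1 with Xist as a covariate, which was no layer gene. The count of layer genes at an unadjusted p under 0.05 was 3. It was 2 with RLE scaling, library size alone or no filter, 6 with DESeq2 and 1 to 9 with each library left out (1 without CD 4 or KD 3 and 9 without KD 1). Over all tested genes the counts were 506 of 15881 in the main fit and 585 of 15881 with DESeq2. They were 428 of 15660 without CD 4, 359 of 16166 without KD 3 and 648 of 16170 without KD 1. The count of layer genes without overlap was 2, and 2 to 7 with each library left out. The share of all tested genes without overlap was not taken for each of these settings. It was 4.11% with all libraries and 15.6% without CD 4 and KD 3, so counts from fewer libraries cannot be compared directly. The further layer genes at an unadjusted p under 0.05 numbered 2, with 4 under Xist as a covariate and 0 to 6 with each library left out. With Xist as a covariate 1011 of 15881 tested genes were under this limit, and with each library left out 256 to 1161 were. The upper-layer median of -0.11 ranged from -0.307 (without KD 2) to 0.0784 (without KD 3), and the deep-layer median of -0.07 from -0.194 (without KD 1) to 0.0494 (without KD 3), with -0.159 under Xist as a covariate. The cause was not tested.

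Leaving out CD 4 and KD 3 together was chosen after seeing the data. It left 1 layer gene at an unadjusted p under 0.05, as were 2.54% of all tested genes, and 5 without overlap, as were 15.6%. Of the further layer genes 0 had an unadjusted p under 0.05. It reversed Cux1 (0.152), Bcl11b (-0.0657), Tle4 (0.00334), Cplx3 (0.268), Tbr1 (0.0079), Sox5 (0.117) and Syt6 (0.00786). With each library left out, log2 fold changes of these genes took both signs: Cux1 from -0.535 to 0.137, Rorb from -0.832 to 0.0557, Mdga1 from -0.205 to 0.736, Pou3f2 from -0.426 to 0.101, Lhx2 from -0.0524 to 0.131, Lamp5 from -0.479 to 0.195, Bcl11b from -0.169 to 0.371, Etv1 from -0.538 to 0.0161, Foxp1 from -0.506 to 0.132, Ctgf from -0.0377 to 0.444, Nxph4 from -0.102 to 1.17, Tbr1 from -0.342 to 0.116, Sox5 from -0.194 to 0.0917, Syt6 from -0.424 to 0.188 and Hs3st4 from -0.0649 to 0.15. Without KD 3 alone, 12 of 33 layer genes took the other sign.

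The replicate numbers 1 to 3 occur in both diets. Deviations of same-numbered libraries correlated at 0.251, 0.195 and 0.098, each library best with its own number, which is a hint from the data and not from the design, so the libraries were taken as sharing only a number. With a replicate block over these libraries, 182 genes had an unadjusted p of at most 0.01. An unadjusted p under 0.05 was then found for 6 layer genes and for 923 of all 15660 tested genes. Scnn1a and Nxph4 rested on 4 to 285 counts in a library, so that counting error adds to the spread between mice.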
